A study of Homo sapiens with 6 samples.

Results

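The PARP family makes ADP-ribosyl transferases, and DTX3L is a ubiquitin ligase that forms a complex with its family member PARP9. The genes described are PARP1, PARP2, PARP4, PARP8, PARP9, PARP10, PARP11, PARP12, PARP14 and DTX3L, 10 of the 58051 genes in the deposited expression table. They were taken by symbol, but they and the gene lists below were chosen with earlier results of these data known. Their counts beside those of all tested genes are therefore descriptions. The 10 members were read in 6 RNA-seq libraries of NT2 (NTera-2), an established human line labelled as embryonal carcinoma. By their titles, 3 libraries came from cells with mimics of the piRNA piR-36249 (small RNAs of a class known mainly from germ cells) and 3 from cells with a scramble of piR-36249. The treatment field calls both an overexpression. The genotype field of the mimic libraries reads knockdown of piR-36249 and that of the scramble libraries reads control, so the labels disagree on the perturbation, and the titles were followed. No dose, time or number of cultures is labelled, so the errors below measure the spread between libraries, which may be technical.

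As background, PARP enzymes use NAD+ to attach ADP-ribose to proteins or nucleic acids. PARP1 and PARP2 build long chains of it at DNA breaks, where the chains recruit repair factors such as XRCC1, and they are the targets of the PARP inhibitors used against cancers with faulty homologous recombination. PARP10, PARP11, PARP12 and PARP14 attach single units, and with PARP9 and DTX3L they are known as genes induced by interferon, several of them with antiviral roles. PARP9 and DTX3L lie head to head on the genome and work as a pair in interferon signalling and at DNA breaks. PARP4 is the PARP of the vault, a large ribonucleoprotein particle. The comparison asks how the interferon-linked members stood beside the DNA repair members when mimic libraries were set against scramble libraries.

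Promoter sequence is shown first because it carries the feature that sets several interferon-linked members apart by letters: the core of the interferon-stimulated response element. The core was searched as TTTC, any 2 bases and TTTC on both strands in RefSeq windows of 300 bases (250 before and 50 from each start on, build GRCh38.p14). Of the 10 members 8 had windows; PARP4 and PARP10 had none. Each line gives 50 bases before the RefSeq start and the first 10 from it, 5′ to 3′ on the strand of the gene, with the core in capitals.
PARP9 (chr3:122564291-122564350, minus): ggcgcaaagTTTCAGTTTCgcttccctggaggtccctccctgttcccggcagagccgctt
DTX3L (chr3:122564288-122564347, plus): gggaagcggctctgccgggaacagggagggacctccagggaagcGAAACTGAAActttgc
PARP14 (chr3:122680789-122680848, plus): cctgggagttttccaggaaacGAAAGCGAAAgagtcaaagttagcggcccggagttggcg
PARP12 (chr7:140062942-140063001, minus): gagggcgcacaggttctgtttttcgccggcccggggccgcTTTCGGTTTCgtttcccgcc
PARP1 (chr1:226408084-226408143, minus): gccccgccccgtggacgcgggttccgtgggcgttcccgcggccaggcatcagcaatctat
PARP2 (chr14:20343585-20343644, plus): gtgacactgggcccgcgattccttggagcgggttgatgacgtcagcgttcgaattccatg

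The core was found in a window of 4 of the 5 interferon-linked members that had one, PARP9, DTX3L, PARP12 and PARP14, and not in that of PARP11. Neither PARP1 nor PARP2 held it, nor did PARP8. In a list of interferon-stimulated genes it was found in 29 of 41 genes with a window, beside 4.38% of all 27305 genes with one. In PARP9 and DTX3L it is the same 10 bases, chr3:122564332-122564341, read from opposite sides, since their RefSeq starts are 37 bases apart and diverge. PARP9 has a second RefSeq start farther out, whose window did not hold the core. The STAT site letters TTCNNNGAA, which read the same on both strands, were found in the windows of PARP14 and PARP2 and in 9.38% of all genes; in PARP14 they did not overlap the core. A match describes letters and is not a measured binding site.

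Depth was between 48.0 and 62.7 M reads per library, read from the steps of the deposited values. Values are FPKM as deposited, which divide reads by gene length and depth. The length takes in all annotated exons and not only those of the transcripts expressed, so levels compared between genes are approximate. Tests are limma on log2(FPKM + 1), and a log2 difference is mimic minus scramble on that scale. A gene is called when its adjusted p is under 0.05. Of all 12912 tested genes 35.5% were called. Of 13 embryonal carcinoma markers 5 were above 1 FPKM in every library and 8 averaged under 0.5 FPKM. Among the latter NANOG, SOX2, SALL4, TDGF1 and L1TD1 were listed at 0 throughout. Of 10 endothelial markers 7 were above 1 FPKM in every library. The summed level of the endothelial markers was between 688 and 751 FPKM in mimic libraries and between 576 and 619 FPKM in scramble libraries. That of the embryonal carcinoma markers came almost wholly from the 5 above 1 FPKM. It was between 759 and 780 FPKM in mimic libraries and between 565 and 617 FPKM in scramble libraries. This sum does not show that the list as a whole was expressed. Above 1 FPKM in every library were also 2 of 6 epithelial, 1 of 8 fibroblast and 0 of 7 blood markers. Whether the cells match their label, and the part of any marker list in the results below, was not tested.

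Of the 10 members, 3 were higher with mimic (PARP9, PARP10 and PARP14), 1 was lower (PARP1), 4 did not pass the test and 2, PARP8 and PARP11, lay under the filter of 0.5 FPKM and were not tested. All 3 that rose are interferon-linked, and the 1 that fell is a DNA repair member. The PARP1 call was lost in 5 of 17 alternative settings. PARP3, a PARP of DNA break repair outside the 10 members, was called higher (log2 difference 0.25). Over all tested genes 18.7% were called higher and 16.8% lower, so 1 of 8 lower is near the background. The mimic libraries all lay above the scramble libraries in 4 of the 8 tested members and all below in 1, beside 26.0% and 23.2% of all tested genes. Because these are bulk libraries, fewer cells with a transcript and less RNA per cell cannot be told apart.

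**Figure D1:**
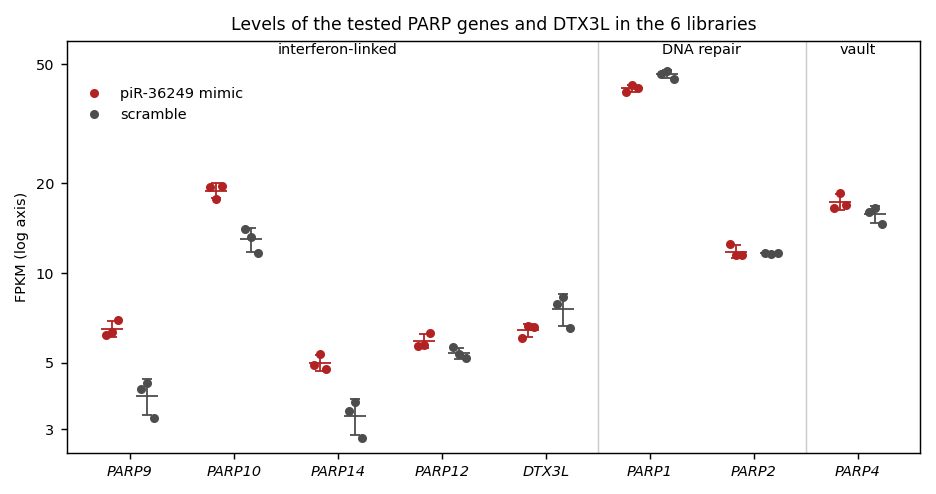
Level of the 8 tested members in FPKM (log axis), with mimic libraries (red) left of scramble libraries (grey) for each gene; points are libraries 1 to 3 from left to right, and bars give the mean ± SD of 3. PARP9, PARP10 and PARP14 sit higher in all mimic libraries and PARP1 sits lower, while PARP2 at 11.8 and 11.6 FPKM overlaps. PARP12 also sits higher in all mimic libraries, by a small gap, and was not called.

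PARP9 (ENSG00000138496, chromosome 3, 122527924 to 122564577, minus strand) encodes a macrodomain protein that lacks the usual catalytic residues and binds ADP-ribose. It measured 6.22, 6.37 and 6.95 FPKM in mimic libraries, against 4.10, 4.27 and 3.28 FPKM in scramble libraries. Every mimic library lay above every scramble library. The mean was 6.51 ± 0.389 FPKM with mimic and 3.88 ± 0.529 FPKM with scramble (SD, n = 3 each), a ratio of 1.68. Its log2 difference was 0.63 (SE 0.085, 95% interval 0.43 to 0.82, adjusted p = 0.00117). PARP9 stood high among the tested genes, 98.5% of which had a smaller or more negative difference.

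PARP14 (ENSG00000173193, chromosome 3, 122680618 to 122730840, plus strand), a large macrodomain protein linked to STAT6 signalling and to antiviral defence, showed nearly the same pattern at a lower level. Its values were 4.91, 5.35 and 4.75 FPKM in mimic libraries, against 3.44, 3.70 and 2.81 FPKM in scramble libraries, with no overlap. The log2 difference was 0.48 (SE 0.084, 95% interval 0.29 to 0.68, adjusted p = 0.00372), a ratio of 1.51 in FPKM. Between 1577 and 3037 reads per library stood behind it.

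PARP10 (ENSG00000178685, minus strand), a mono-ADP-ribosyl transferase that binds ubiquitin and restrains cell proliferation when overexpressed, was the most abundant of the interferon-linked members. It reached 19.5, 17.7 and 19.6 FPKM in mimic libraries, against 14.1, 13.2 and 11.7 FPKM in scramble libraries. The lowest mimic value lay above the highest scramble value. Its log2 difference was 0.51 (SE 0.071, 95% interval 0.35 to 0.68, adjusted p = 0.00129). PARP10 shares 324 exon bases with GRINA and 197 with SPATC1, both on the opposite strand, together 8.64% of its exon length, and how such reads were counted is not given in the sources used here. GRINA measured 66.7, 65.2 and 73.5 FPKM with mimic and 62.4, 60.3 and 64.8 FPKM with scramble and did not pass the test (log2 difference 0.13, adjusted p = 0.101), and SPATC1 was listed at 0 in every library.

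DTX3L (ENSG00000163840, chromosome 3, 122564238 to 122575203, plus strand), the ubiquitin ligase that partners PARP9, was not called, and its values lay on the other side of scramble from those of PARP9. Its values were 6.08, 6.64 and 6.61 FPKM in mimic libraries and 7.89, 8.29 and 6.53 FPKM in scramble libraries. Scramble replicates 1 and 2 lay above all mimic libraries, while scramble replicate 3 lay within their range. The log2 difference was -0.20 (SE 0.081, 95% interval -0.39 to -0.01), which did not pass (adjusted p = 0.0936). Without scramble replicate 3 it was -0.29 with adjusted p = 0.00958, and with voom on recovered reads it was -0.23 with adjusted p = 0.0442. The direction stayed negative under every alternative run.

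The 2 partner genes thus stood in different proportions in the groups. The ratio of PARP9 to DTX3L, both in FPKM and so per length, was 1.02, 0.959 and 1.05 in mimic libraries, against 0.520, 0.515 and 0.502 in scramble libraries. The groups did not overlap (1.01 ± 0.048 with mimic, 0.512 ± 0.0092 with scramble, SD, n = 3 each). Relative to its mean, the ratio varied less than either gene with scramble, where the SD was 13.6% of the mean for PARP9 and 12.2% for DTX3L. With mimic its relative spread was close to that of DTX3L, 4.89%. Their sum overlapped between groups, at 12.3 to 13.6 FPKM with mimic and 9.82 to 12.6 FPKM with scramble. In GENCODE 29 the genes overlap by 340 bases at their starts and share 217 exon bases, 2.43% of the exon length of PARP9 and 3.70% of that of DTX3L. Whether shared reads were dropped, split or given to both is not known here.

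**Figure D2:**
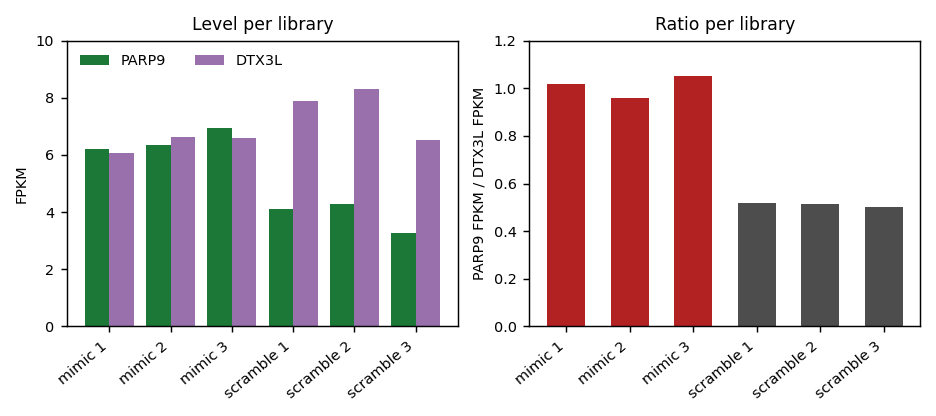
Left, FPKM of PARP9 (green) and DTX3L (purple) in each library; right, their ratio, with mimic libraries in red and scramble libraries in grey. In FPKM the genes are near parity in mimic libraries, with ratios of 0.959 to 1.05, while DTX3L is the higher in scramble libraries, with ratios of 0.502 to 0.520.

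Calls on this stretch of chromosome 3 were not shared by all neighbours. KPNA1, an importin gene 12979 bases beyond the far end of PARP9, measured 5.98, 6.91 and 6.21 FPKM with mimic and 6.47, 6.54 and 6.24 FPKM with scramble (log2 difference -0.01, adjusted p = 0.897). HSPBAP1, 9163 bases beyond PARP14, gave a log2 difference of 0.03 (adjusted p = 0.729). PARP15, which lies between DTX3L and PARP14, was at 0 reads in every library other than mimic replicate 3, where it had 4. Thus at this locus PARP9 and PARP14 were called, and DTX3L between them was not.

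PARP12 (ENSG00000059378, chromosome 7, 140023744 to 140063721, minus strand), a zinc finger PARP known to restrict viruses, did not pass the test. It measured 5.71, 5.76 and 6.28 FPKM in mimic libraries, against 5.64, 5.35 and 5.20 FPKM in scramble libraries. The groups did not overlap, but the gap was small beside their spread, and the log2 difference of 0.11 did not pass (SE 0.053, 95% interval -0.01 to 0.24, adjusted p = 0.139). PARP11 (ENSG00000111224, chromosome 12), known to modify an E3 ligase that controls the interferon receptor, was barely detected, at 0.0990, 0.128 and 0.0605 FPKM with mimic and 0.0926, 0.113 and 0.0723 FPKM with scramble. These are 36, 43 and 18 reads with mimic and 36, 37 and 24 with scramble, and the ranges overlap. PARP11 lay under the filter and was not tested.

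PARP1 (ENSG00000143799, chromosome 1, 226360691 to 226408079, minus strand), the main sensor of DNA strand breaks, was the most abundant member in both groups. It measured 40.4, 42.6 and 41.6 FPKM in mimic libraries, against 46.5, 47.6 and 44.8 FPKM in scramble libraries. All mimic libraries lay below all scramble libraries, by a small margin, with a ratio of means of 0.897. The log2 difference was -0.15 (SE 0.040, 95% interval -0.25 to -0.06, adjusted p = 0.02). This call was lost without mimic replicate 1 (adjusted p = 0.0623) or 3 (0.0598), without scramble replicate 1 (0.0683) or 2 (0.0703) and on the TPM scale (0.0744), with the direction kept each time. Its size was ordinary, since 22.7% of tested genes had a more negative difference.

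PARP2 (ENSG00000129484, chromosome 14, 20343582 to 20357905, plus strand), which shares the response to DNA breaks with PARP1, did not pass the test. It measured 12.5, 11.5 and 11.5 FPKM in mimic libraries and 11.7, 11.6 and 11.7 FPKM in scramble libraries, and the scramble values fell inside the mimic range. The log2 difference was 0.02 with a 95% interval of -0.09 to 0.12 (adjusted p = 0.787), so the interval holds no change as large as that of PARP9, PARP10 or PARP14. The genes on either side of it were both called, CCNB1IP1 lower (-0.17) and TEP1 higher (0.24).

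Members can also be set against PARP1 as ratios within each library, which a single scaling factor per library leaves unchanged. PARP1 was itself called lower with mimic, and its fall raises each of these ratios. PARP10 stood at 0.481, 0.415 and 0.470 of the PARP1 level in mimic libraries, against 0.303, 0.277 and 0.261 in scramble libraries. PARP14 stood at 0.122, 0.126 and 0.114 of PARP1 with mimic, against 0.0740, 0.0777 and 0.0627 with scramble. PARP2 stood at 0.309, 0.270 and 0.275 of PARP1 with mimic and 0.251, 0.243 and 0.261 with scramble. These did not overlap either, although PARP2 itself did not pass the test. Separation of a ratio to PARP1 was thus not particular to the interferon-linked members. Over all 6 interferon-linked members the median log2 difference was 0.30, with untested PARP11 at 0.004, a value that the pseudocount holds near 0, and over the 5 tested it was 0.48. Over both DNA repair members it was -0.07, beside 0.0025 for all tested genes. These medians describe the members and carry no test.

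PARP4 (ENSG00000102699, chromosome 13, 24420926 to 24512810, minus strand) measured 16.5, 18.6 and 16.9 FPKM in mimic libraries and 16.1, 16.5 and 14.6 FPKM in scramble libraries. The groups overlapped slightly, and the log2 difference of 0.13 did not pass (SE 0.061, adjusted p = 0.136). The other protein parts of the vault, 2 genes, were both higher with mimic, beside 18.7% of all tested genes. A list of 2 genes is too short to read as a share. MVP, the major vault protein, was at 76.2 ± 1.51 and 64.4 ± 1.31 FPKM (SD, n = 3 each, log2 difference 0.24, adjusted p = 0.00187). TEP1 was at 13.7 ± 1.03 and 11.4 ± 0.786 FPKM (SD, n = 3 each, log2 difference 0.24, adjusted p = 0.0248). The promoter windows of MVP and TEP1 both held the interferon core described above. TEP1 lost its call without mimic replicate 2 or 3, without scramble replicate 1 or 3 (adjusted p between 0.0543 and 0.0640) and without the filter on low values (0.0861). PARP8, which attaches single ADP-ribose units and is little studied, had 0, 2 and 2 reads with mimic and 2, 2 and 0 with scramble. A count of 0 allows up to 3 reads, 0.00509 FPKM in mimic replicate 1 and 0.00558 FPKM in scramble replicate 3, and covers counting error only.

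By level, the order with mimic was PARP1, PARP10, PARP4, PARP2, PARP9, DTX3L, PARP12, PARP14, PARP11 and PARP8. In it PARP10 and PARP4 overlapped, as did PARP9 with DTX3L and DTX3L with PARP12. With scramble it was PARP1, PARP4, PARP10, PARP2, DTX3L, PARP12, PARP9, PARP14, PARP11 and PARP8, with overlap only of PARP9 and PARP14. PARP10 thus ranked above PARP4 by mean with mimic and below it with scramble. Scramble replicate 3 held the lowest of the scramble values in 7 of the 8 tested members and the highest in the other, PARP2.

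Of the 7 other tested PARP genes, PARP3 and TNKS2 were higher and none was lower, with a median log2 difference of 0.18. Higher calls were 28.6% of these genes, beside 18.7% of all tested genes. PARP3, a further PARP of DNA break repair, measured 42.2, 39.8 and 43.5 FPKM in mimic libraries, against 36.0, 35.2 and 33.7 FPKM in scramble libraries, with no overlap. Its log2 difference was 0.25 (SE 0.046, adjusted p = 0.00457), opposite in sign to that of PARP1, so the PARP genes of DNA repair did not share a direction. PARP3 stood at 1.04, 0.934 and 1.05 of the PARP1 level with mimic, against 0.774, 0.740 and 0.753 with scramble.

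TNKS2, a tankyrase that marks AXIN proteins for destruction, measured 11.9, 12.8 and 12.1 FPKM with mimic, against 10.3, 10.5 and 8.74 FPKM with scramble (log2 difference 0.30, adjusted p = 0.0131). This call was lost without the filter on low values (adjusted p = 0.0545). Its paralog TNKS gave 0.23 (adjusted p = 0.0931) and passed without scramble replicate 2 (0.0387), with voom (0.0277) and with the replicate block (0.0360). ZC3HAV1, the antiviral zinc finger protein also counted as a PARP, had values of 51.0, 60.5 and 57.5 FPKM with mimic and 48.7, 58.0 and 42.7 FPKM with scramble, which overlap (0.18, adjusted p = 0.231, and 0.0416 without scramble replicate 2). PARP16 (0.13), PARP6 (0.07) and TIPARP (-0.12), a target of the aryl hydrocarbon receptor, did not pass, and TIPARP passed as lower without scramble replicate 3 (adjusted p = 0.0427).

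**Figure D3:**
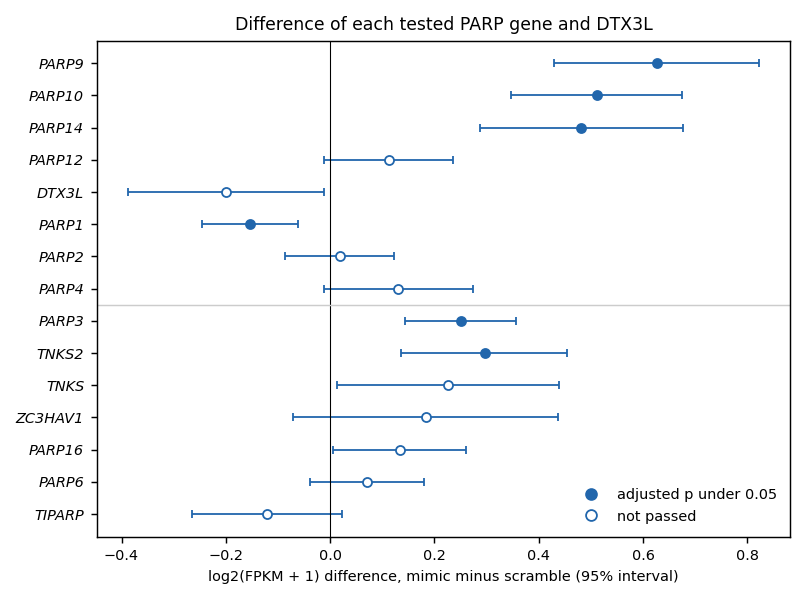
Difference in log2(FPKM + 1), mimic minus scramble, with its 95% interval from limma for the 8 tested members (above the grey line) and 7 other PARP genes (below it); filled points passed at an adjusted p under 0.05. PARP9, PARP10 and PARP14 lie at 0.48 or more, apart from the other interferon-linked genes PARP12 and DTX3L.

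Genes around the interferon-linked members mostly moved up. Among 10 genes of the interferon receptor, its kinases, the STAT partners and related IRF factors, 8 were higher (80.0%, beside 18.7% of all tested genes) and none lower, with a median of 0.30. JAK1, a kinase of that receptor, was at 97.4 ± 2.96 and 65.2 ± 3.96 FPKM with mimic and scramble (log2 difference 0.57). The factor IRF7 gave 0.53, and the receptor chains IFNAR1 and IFNAR2 gave 0.40 and 0.39. IRF1 (-0.12) and TYK2 (0.07) did not pass. Of 42 tested interferon-stimulated genes 29 were higher (69.0%), 1 was lower and 12 did not pass, with a median of 0.37, among them OAS2 (1.62), the gene named in the title of the series, IFIT2 (1.11), UBE2L6 (0.66) and, as the only fall, USP18 (-1.09). PARP9, PARP10 and PARP14 lay above that median and PARP12 and DTX3L below it.

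Of 22 tested genes of single-strand break and base excision repair, 7 were lower (31.8%, beside 16.8% of all tested genes) and none higher, with a median of -0.10. The lower count differed in 14 of 17 alternatives, from 5 to 9, and 1 gene was higher with quantile scaling. The thymine glycosylase TDG stood at 3.98 ± 0.0655 and 5.73 ± 0.174 FPKM with mimic and scramble (log2 difference -0.43, adjusted p = 0.000366), and the glycosylase MUTYH (-0.36), the polymerase POLB (-0.28) and the topoisomerase TOP1 (-0.25) also fell. XRCC1, the scaffold that PARP1 recruits, gave -0.02 (adjusted p = 0.858). Homologous recombination genes had 2 of 22 lower, among them the nuclease MRE11 (-0.33), and 1 higher, CHEK1 (0.25), with a median of -0.06, and BRCA1 (-0.11) did not pass. Those 9.1% lower and 4.5% higher lie under the shares over all tested genes, and the lower count was 1 in 12 of 17 alternatives.

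Genes that supply, read or remove ADP-ribose were mixed. Of 14 tested genes of NAD+ synthesis and use 4 were higher (28.6%, beside 18.7% of all tested genes) and none lower, with a median of 0.12. NAMPT, the rate-limiting enzyme of NAD+ salvage, was at 15.1 ± 0.55 and 12.6 ± 0.448 FPKM with mimic and scramble (0.25, adjusted p = 0.00436), and the NAD kinases NADK (0.40) and NADK2 (0.42) and the deacetylase SIRT2 (0.28) rose. Of 9 tested genes for readers and removal 2 were lower, the remodeller CHD1L (-0.17, adjusted p = 0.00838) and the histone MACROH2A1 (-0.18, adjusted p = 0.0217), with a median of -0.06. These are 22.2% of the list, near the 16.8% of all tested genes. MACROH2A1 lost its call without mimic replicate 1 or 3, without scramble replicate 1 or 2 (up to 0.0700) and on the TPM scale (0.0682). PARG, the main enzyme that cuts the chains, gave 0.16 (adjusted p = 0.116, and 0.0460 with the replicate block) and HPF1, the factor that directs PARP1 to serine, gave -0.17 (adjusted p = 0.174). The Deltex relatives DTX3 (0.13) and DTX2 (-0.11) did not pass, although DTX3 did on the TPM scale (0.0407) and at a filter of 5 FPKM (0.0451).

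Of 4 tested tankyrase partners only RNF146, the ligase that reads tankyrase marks, rose (0.23, adjusted p = 0.0135, lost without scramble replicate 1 at 0.0544 and not tested at a filter of 5 FPKM). TERF1 (-0.07), AXIN1 (-0.02) and NUMA1 (0.01) did not pass. A count of 1 among 4 genes is near the 18.7% called higher over all tested genes. These lists are described by their counts and medians and were not tested as lists.

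**Figure D4:**
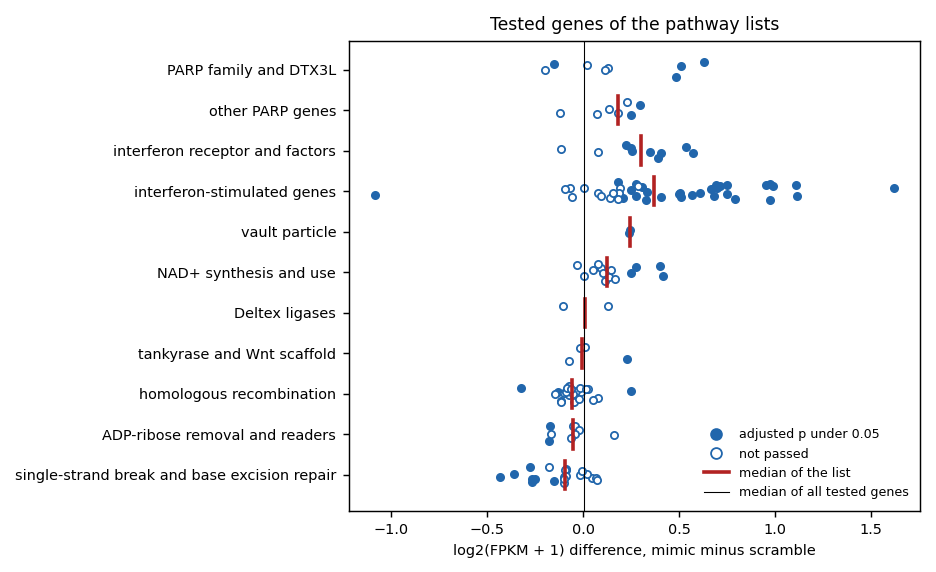
Difference in log2(FPKM + 1), mimic minus scramble, of every tested gene of each list; filled points passed at an adjusted p under 0.05, red bars are list medians (none drawn for the PARP members) and the black line is the median of all tested genes, 0.0025. Interferon lists lie to the right with medians of 0.30 and 0.37, and single-strand break and base excision repair lies to the left at -0.10.

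Likeness of pattern was measured as the root mean square distance between log2(FPKM + 1) profiles over the 6 libraries, each centred on its mean. Among 12911 other genes, DTX3L ranked 9863 in closeness to PARP9 (distance 0.414), while PARP10 ranked 49 (0.089) and PARP14 ranked 106 (0.105). The members nearest to DTX3L were PARP1, at rank 308 (0.074), and PARP2. Among the genes closest to PARP9 were GRAMD1B (0.042) and DIXDC1 (0.050), those closest to PARP10 were GPR162, SOWAHC and IRF7 (0.034 to 0.042), and those closest to PARP14 were UNC13A, PRR14L and STARD4 (0.018 to 0.033). PARP1 was closest to PI4KA, TTC17 and TIMELESS (0.008 to 0.011). With 6 libraries in 2 groups, many genes with a like difference lie close by this measure.

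**Figure D5:**
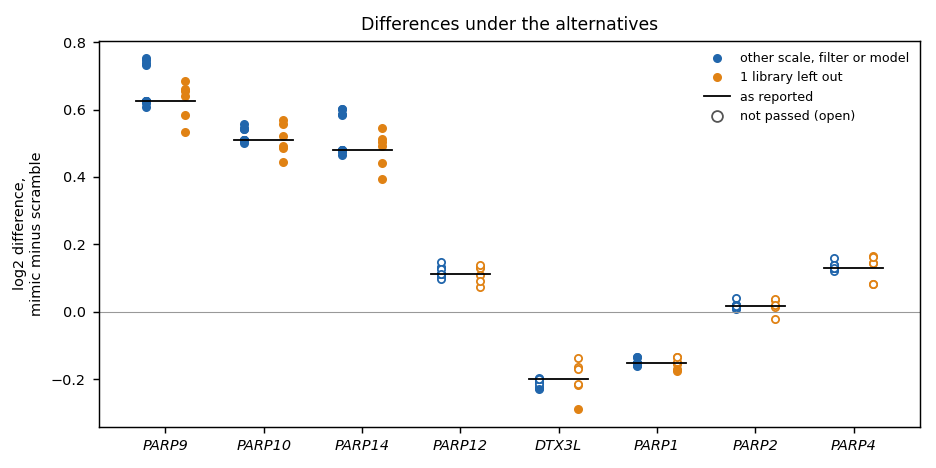
Log2 difference of the 8 tested members as reported (black bars), under other scales, filters and models (blue) and with 1 library left out (orange); filled points passed at an adjusted p under 0.05. PARP9, PARP10 and PARP14 stay filled and positive, PARP12, PARP2 and PARP4 are unfilled throughout, and PARP1 and DTX3L are filled under some settings only.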

How the data were processed

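The submitters' processing notes name HISAT2 2.1.0, Trimmomatic 0.39, DESeq2 1.26.0 and featureCounts 2.0.1, with build GRCh38; annotation and strand use were not given in the sources used here. FPKM values of 58051 genes in 6 libraries were deposited by the authors. Their deposited comparison table holds log2 fold changes, a test score and p-values for 401 genes, with log2 fold changes of 1.00 or more in size and adjusted p-values up to 0.0499, per the file headers and values; it lists 0 of the 10 members. The table held 0 columns of other samples.

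Symbols and positions came from GENCODE 29 (57447 of 58051 identifiers named). FPKM times exon length, divided by 1 step per library, gave whole reads (within 0.02) for 96.2% to 96.5% of values under about 20 reads, which gives the depths. Genes averaging 0.5 FPKM or more were fitted with limma 3.58.1 (R 4.3.3, variance trend) on log2(FPKM + 1), which understates changes of low genes, with Benjamini-Hochberg adjustment over all of them. The model was tested on simulated data. Exact two-sided permutation tests of the members (3 against 3 libraries) cannot go below 0.1. Members and gene lists were chosen with earlier results of these data known. Named genes are the members, other PARP genes, up to 4 genes per list with the smallest p, the 3 nearest profiles per member and neighbouring genes; IRF1, TYK2 and XRCC1 were added after their values were seen, and some genes that the rule names are not reported here.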

Additional observations from a re-analysis of the deposited data

How the results depend on the processing

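Alternatives were pseudocounts of 0.1 and 0.01, other filters, TPM, median-of-ratios and quantile scaling, other variance models, voom on recovered reads, the replicate block and each library left out. PARP9 (0.53 to 0.75), PARP10 (0.44 to 0.57) and PARP14 (0.39 to 0.60) kept their call under all that tested them; PARP14 lies under the filter of 5 FPKM. The number of members called lower, 1 as reported, was 0 on the TPM scale, 2 with voom and 0 to 2 with a library left out, where PARP1 and DTX3L crossed the threshold. The DNA repair median moved to -0.046 on the TPM scale. The interferon-linked median was 0.24 to 0.35 where PARP11 had a value; voom and quantile scaling gave none. With a library left out PARP2 ranged from -0.020, without mimic replicate 1, to 0.037, and NUMA1 from -0.021 to 0.028, negative without mimic replicate 2 or scramble replicate 3. AXIN1 reversed on the TPM scale (0.001) and NUMA1 with median-of-ratios (-0.002) and quantile scaling (-0.001); none of these was called, and the cause was not tested. The median of all genes, 0.003 as reported, was 0.024 on the TPM scale, -0.005 with median-of-ratios and -0.001 with quantile scaling.

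Over all genes, 2417 were higher and 2167 lower as reported; leaving out a library gave 1785 to 2071 and 1595 to 1927. Whether replicate numbers pair the libraries could not be settled with so few libraries. Same-numbered deviations correlated at -0.0619, 0.241 and 0.0541. Mimic replicates 2 and 3 correlated best with the scramble library of their own number, while mimic replicate 1 correlated best with scramble replicate 3 (0.23). With the replicate block 2427 genes were higher and 2182 lower, with 3 members higher and 1 lower; TNKS and PARG gained a call. PARP8, PARP11 and PARP15 had too few reads to pass the filter.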
